A study of Mus musculus with 48 samples.

Results

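Granins and the enzymes that process prohormones were examined in RNA-sequencing of hippocampal Cornus Ammonis (CA) tissue. The genes were taken from the count matrix by symbol, and all 10 were found among its 24421 genes. They are 7 genes of the granin group (*Chga*, *Chgb*, *Scg2*, *Scg3*, *Scg5*, *Vgf* and *Pcsk1n*) and 3 processing enzymes (*Pcsk1*, *Pcsk2* and *Cpe*). The low-count filter kept all 10 in every comparison.

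The study asked how the hippocampus responds when the cannabinoid receptor CB1 is missing from one of the main classes of forebrain neurons. All 48 male mice, labelled as 8 weeks old, came from crosses of CB1f/f mice with mice that express Cre recombinase, and each library is 1 mouse. In the Glu-CB1 line, Cre under regulatory elements of nex1 deletes CB1 in glutamatergic neurons of the dorsal telencephalon, so that other neurons, interneurons among them, keep the receptor. In the GABA-CB1 line, Cre under regulatory elements of dlx5/6 deletes it in forebrain GABAergic neurons, and pyramidal cells keep it. CB1-WT littermates were the controls of each line. Basal mice of the Glu-CB1 line numbered 5 CB1-WT and 7 KO, and those of the GABA-CB1 line 6 CB1-WT and 6 KO. Mice that had spent 5 min in an open field arena, a white box new to the animal, numbered 5 CB1-WT and 7 KO in the former line and 7 CB1-WT and 5 KO in the latter. For the latter the text of the study gives these sizes the other way round, and the sample labels were followed. The authors chose the mice for sequencing partly by tissue purity, behavior and *Arc* levels. Because the tissue is a mixture of cells, fewer cells of a type and less RNA per cell cannot be told apart in any value given here.

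Neuropeptides are made as large precursors that enter the regulated secretory pathway and are packed into dense-core vesicles. Granins are acidic proteins that aggregate in the trans-Golgi network, help to form these vesicles and are themselves cut into peptides. Prohormone convertases cut precursors after pairs of basic residues, carboxypeptidase E removes the basic residues left at the new ends, and some granins act as chaperones or inhibitors of the convertases. In the hippocampus these genes are expressed in pyramidal cells and in interneurons, and *Vgf*, *Scg2* and *Chgb* are known as genes whose transcription responds to cAMP or neuronal activity.

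The cAMP response element, TGACGTCA, lies in the promoters of *Chgb*, *Scg2* and *Pcsk1*. The *Chgb* window is shown because *Chgb* passed the adjusted test in the basal GABA-CB1 comparison. *Scg2* and *Pcsk1* passed in no comparison, and their windows were chosen after their values were seen. A link between the element and the levels of these genes was not tested. The promoter of *Vgf* was not analysed here. Promoters of 8 of the 10 members were matched by symbol in RefSeq sequences of GRCm38.p6, each 250 bases before to 50 bases after the annotated start. The full element occurred in these 3 of the 8, and in 588 of all 32851 promoters (1.79%). In these 3 it begins at −72, −68 and −78 from the start. Each is given in a window of 30 bases, 5′ to 3′ on the strand of the gene, with the element in capitals. Relative to the exons used for counting, the *Chgb* window lies within exon 1 (chr2:132781278-132781782), 15 bases of the *Scg2* window lie in exon 1 and the *Pcsk1* window lies before exon 1.
*Chgb*, plus strand, chr2:132781559-132781588: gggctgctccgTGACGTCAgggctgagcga
*Scg2*, minus strand, chr1:79440076-79440105: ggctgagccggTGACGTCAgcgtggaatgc
*Pcsk1*, plus strand, chr13:75089768-75089797: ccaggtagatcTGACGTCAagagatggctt

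The shorter form TGACG was found on either strand in 7 of the 8 promoters and in 20.8% of all promoters, and it is part of every full element. The *Chga* promoter holds TGACG without the rest of the full element, at −44, and is shown because *Chga* is the member that passed over both states of the Glu-CB1 line, a call that many alternatives did not keep. The 250 bases before its RefSeq start lie before exon 1 of the counted gene, with TGACG in capitals.
*Chga*, plus strand, chr12:102554691-102554940: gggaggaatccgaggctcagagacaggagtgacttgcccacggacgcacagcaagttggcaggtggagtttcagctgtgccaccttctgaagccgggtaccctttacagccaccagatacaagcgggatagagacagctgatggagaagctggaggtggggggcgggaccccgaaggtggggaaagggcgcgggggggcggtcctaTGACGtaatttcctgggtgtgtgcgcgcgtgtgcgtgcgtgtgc

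Of the other motifs searched on both strands, the AP-1 form TGANTCA was in the *Pcsk1n* promoter only (7.81% of all promoters). TATAAA was in that of *Chga* only (13.6% of all), just after the RefSeq start and before exon 1 of the counted gene. The EGR form GCGTGGGCG was in none of the 8 (0.612% of all). These matches describe the letters in the windows and were not tested for binding.

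The genes lie on 8 chromosomes in mm10. The granin genes are *Chga* (chr12:102554969-102565027, plus strand, 8 exons), *Chgb* (chr2:132781278-132795072, plus strand, 5 exons), *Scg2* (chr1:79434669-79440090, minus strand, 2 exons), *Scg3* (chr9:75643366-75684056, minus strand, 13 exons), *Scg5* (chr2:113776313-113829091, minus strand, 6 exons), *Vgf* (chr5:137030295-137033351, plus strand, 2 exons) and *Pcsk1n* (chrX:7919822-7924410, plus strand, 3 exons). The enzyme genes are *Pcsk1* (chr13:75089987-75132498, plus strand, 14 exons), *Pcsk2* (chr2:143546133-143816282, plus strand, 12 exons) and *Cpe* (chr8:64592551-64693040, minus strand, 9 exons). In the annotation of the counts, *Pcsk1n* overlaps *Eras*, and *Pcsk2* overlaps its antisense transcripts *Pcsk2os1* and *Pcsk2os2*. Values of these 2 members may include reads of the overlapping genes if the amplification did not keep strand, and the other 8 overlap no other gene.

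The libraries held between 25892654 and 34091080 reads counted on genes. *Cnr1*, which encodes CB1, was lower in KO than in CB1-WT libraries in each line and state, with log2 differences of −0.73, −0.72, −1.23 and −1.45. A principal component analysis gave a first axis, the first principal component, with 12.53% of the variance, which set 15 of the 48 libraries apart beyond its largest gap, between 1 and 3 in every group. *Xkr4* was at 5.44 ± 4.02 CPM (SD; CPM, counts scaled to a common library size, normalized by TMM) in these 15 and at 26.8 ± 6.96 in the other 33. *Ttr*, the main marker of the choroid plexus, exceeded 1000 CPM in 2 libraries, GABA-CB1-WT basal replicate 3 and GABA-CB1-KO open field replicate 4. Marker lists of CA1 and of CA3 and CA2 pyramidal cells were detected in full (7 of 7 and 10 of 10 genes over 1 CPM), and 9 of 10 markers of dentate granule cells were also over 1 CPM although the dentate gyrus had been removed.

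Members differed widely in level. Per kilobase of exon, *Cpe*, the carboxypeptidase, had by far the highest mean level at 1472 ± 63.2 CPM per kilobase (SD, n = 48), place 2 of 15570 genes. Next came *Chgb* (chromogranin B) at 314 ± 44.6, place 73, and then *Scg5*, the chaperone and inhibitor of prohormone convertase 2, at 156 ± 7.74. *Scg3*, which binds other granins to the vesicle membrane, had 125 ± 5.55 and *Scg2* (secretogranin II), the precursor of secretoneurin, 93.4 ± 8.83. *Pcsk2* (prohormone convertase 2) followed at 84.2 ± 4.82, *Chga* (chromogranin A) at 56.5 ± 4.56 and *Vgf*, a granin named for its induction by nerve growth factor, at 35.7 ± 5.22. The lowest were *Pcsk1n* (proSAAS), the inhibitor of prohormone convertase 1, at 20.3 ± 2.57, and *Pcsk1*, the convertase itself, at 7.78 ± 1.39, place 7470.

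This order by mean held between most neighbours in single libraries too. The ranges over libraries of *Scg2* and *Pcsk2* overlapped, with *Scg2* above *Pcsk2* in 35 of 48 libraries, and those of *Vgf* and *Pcsk1n* overlapped as well, although *Vgf* was higher in 48 of 48. The other 7 pairs of neighbours did not overlap. Levels per kilobase use the summed length of the annotated exons, so differences in which exons are transcribed or amplified enter them.

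**Figure D1:**
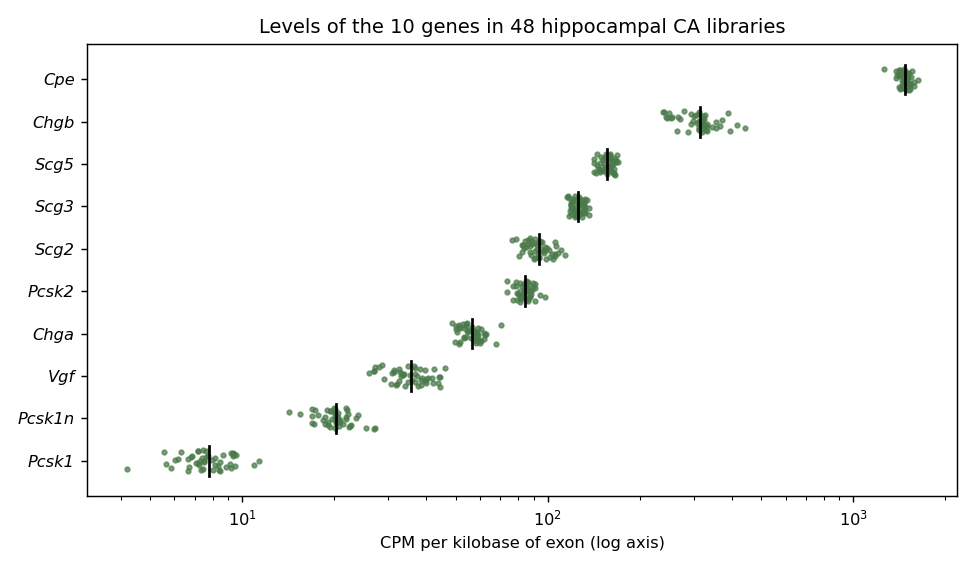
Level of each gene in CPM per kilobase of exon (x axis, log scale), ordered by mean. Each point is 1 of 48 libraries and the black line is the mean; *Cpe* is highest at 1472 and *Pcsk1* lowest at 7.78.

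Across the 8 groups the members varied to different degrees. The ratio of the highest to the lowest group mean was 1.03 for *Scg5*, 1.07 for *Scg3*, 1.07 for *Cpe* and 1.08 for *Pcsk2*. It was 1.13 for *Chga*, 1.21 for *Pcsk1n* and 1.21 for *Scg2*, and largest for *Pcsk1* (1.34), *Chgb* (1.38) and *Vgf* (1.38). The lowest group mean was that of GABA-CB1-KO basal mice for *Chgb* and *Vgf*, and that of GABA-CB1-KO open field mice for *Scg2*, *Scg3*, *Pcsk1* and *Cpe*.

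**Figure D2:**
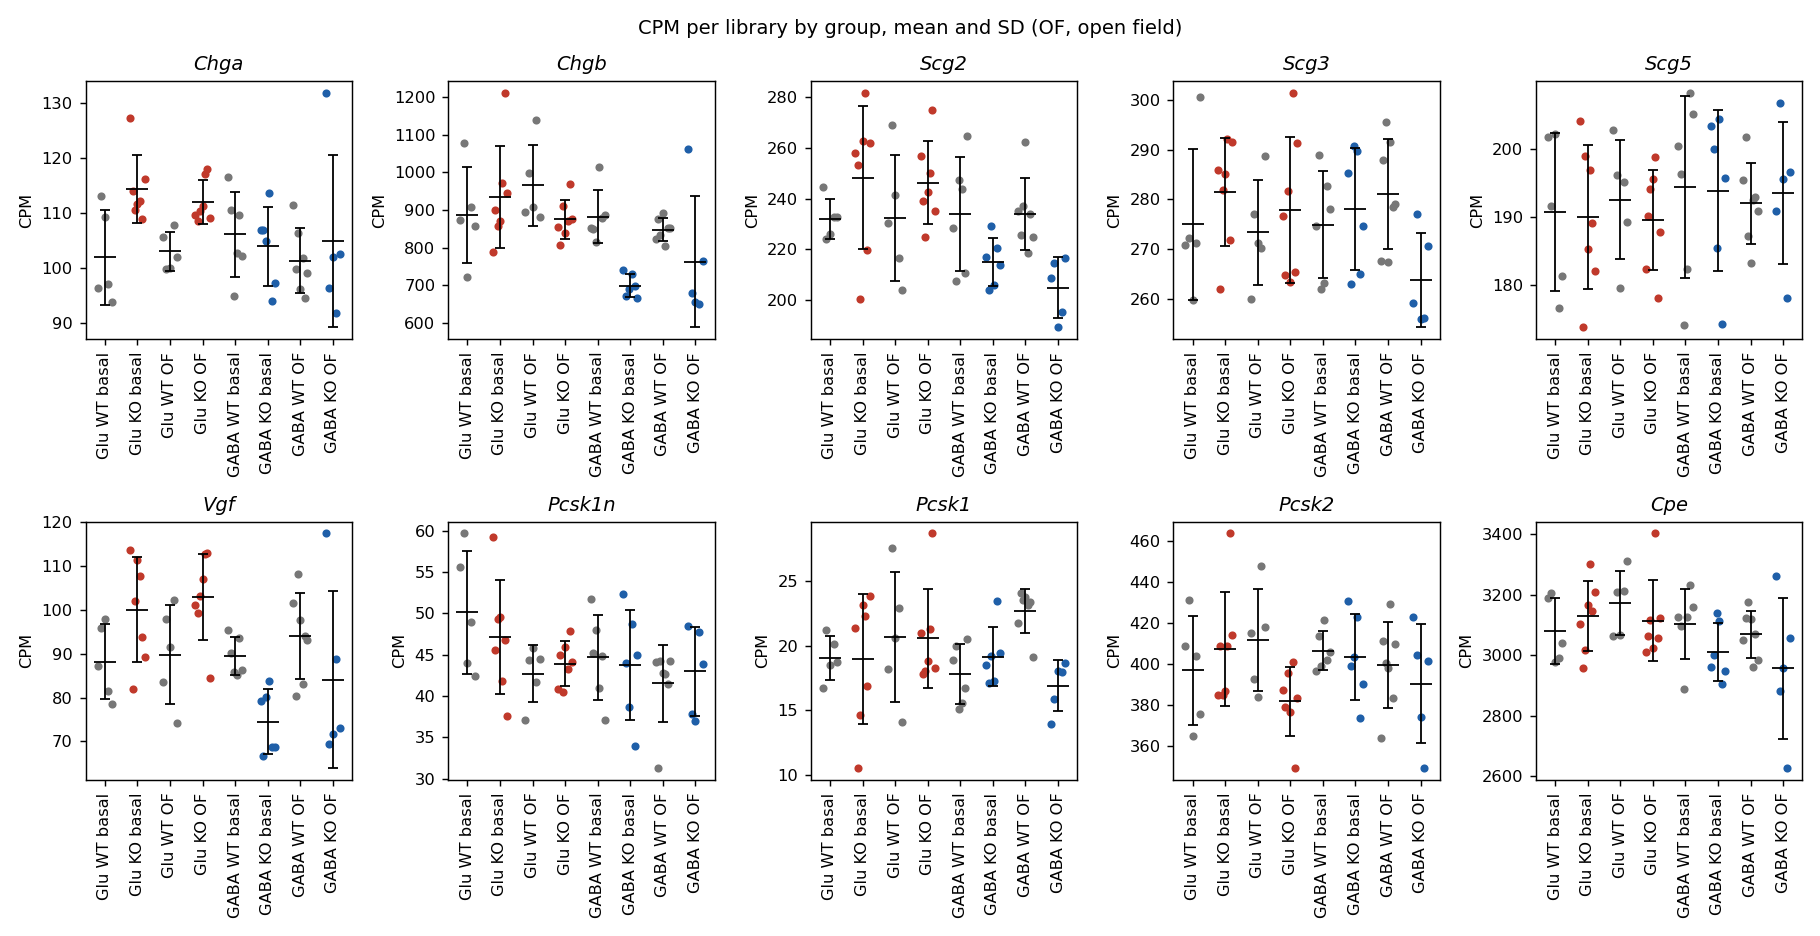
CPM of each gene in every library (points) by group, with the group mean and SD in black. Grey points are CB1-WT, red Glu-CB1-KO and blue GABA-CB1-KO libraries, and the y axes do not start at 0. *Chgb* and *Vgf* of GABA-CB1-KO basal mice lie below their controls, and GABA-CB1-KO open field replicate 1 lies above its group in *Chga*, *Chgb* and *Vgf*.

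Genotype was compared within each line and state, as in the study, to ask which transcripts depend on CB1 in each neuron class. Basal GABA-CB1-KO mice had less *Chgb*, a granin that binds calcium and prohormones in the vesicle. The 6 KO libraries ran from 666 to 740.2 CPM with a median of 695, and the 6 CB1-WT libraries from 815 to 1014 with a median of 865. All 6 KO libraries were thus below all CB1-WT libraries. The log2 difference was −0.33 (SE 0.047), a change of −20.7% with a 95% interval from −26.02 to −15.03%, with an adjusted p of 0.00604 by edgeR's quasi-likelihood test (Benjamini-Hochberg adjusted).

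*Chgb* was the 1 member of 10 that passed the test in this comparison, in which 0.245% of all genes tested did. The call held in 12 of 12 fits that left out 1 library (highest adjusted p 0.0245), and in 9 of 10 other alternatives. With all 48 libraries in one fit, which shares 1 estimate of the spread over all groups, the log2 difference was the same at −0.33 but the SE was 0.088 and the adjusted p 0.150. Over the 10 alternatives the adjusted p ran from 2.44e-08 to 0.150. Summed markers of subiculum and cortex were at 1803 ± 77.9 CPM in these KO and 1910.5 ± 71.7 in CB1-WT mice (SD), with overlap. Those of CA1 pyramidal cells were at 869 ± 80.1 and 851 ± 95.5 CPM, and those of CA3 and CA2 at 570 ± 31.8 and 580 ± 40.4. Those of oligodendrocytes were at 4385 ± 522 and 3987 ± 552 CPM, and those of astrocytes at 5098 ± 226 and 5246 ± 113, each with overlap. The part of these in the level of *Chgb* was not tested.

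*Vgf*, whose peptides act on synaptic activity and energy balance, showed a like separation in the same mice. The KO libraries ran from 66.6 to 83.9 CPM with a median of 74.0, and the CB1-WT libraries from 85.2 to 95.4 with a median of 88.3. The groups did not overlap here either, and the log2 difference was −0.26 (SE 0.056), but the adjusted p was 0.0888 by edgeR's quasi-likelihood test (Benjamini-Hochberg adjusted), so *Vgf* did not pass. It passed without GABA-CB1-KO basal replicate 4 (adjusted p 0.0484), the highest KO library, and with DESeq2 (0.00422), while the other alternatives reached 0.545. No overlap between groups occurred for 2 of the 10 members and for 0.696% of all genes tested.

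The remaining granins and the enzymes showed smaller differences in the basal GABA-CB1 comparison. *Scg2* had a log2 difference of −0.12 (unadjusted p 0.0474, adjusted p 0.610, edgeR), and the other 7 had log2 differences between −0.044 and 0.11, none with an unadjusted p under 0.05. Over the 10 members the median log2 difference was −0.029, beside −0.00054 over all genes. The convertases and *Cpe*, which act on the precursors, had no unadjusted p under 0.05: *Pcsk1* was at 0.11, *Pcsk2* at −0.011 and *Cpe* at −0.044 on the log2 scale.

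**Figure D3:**
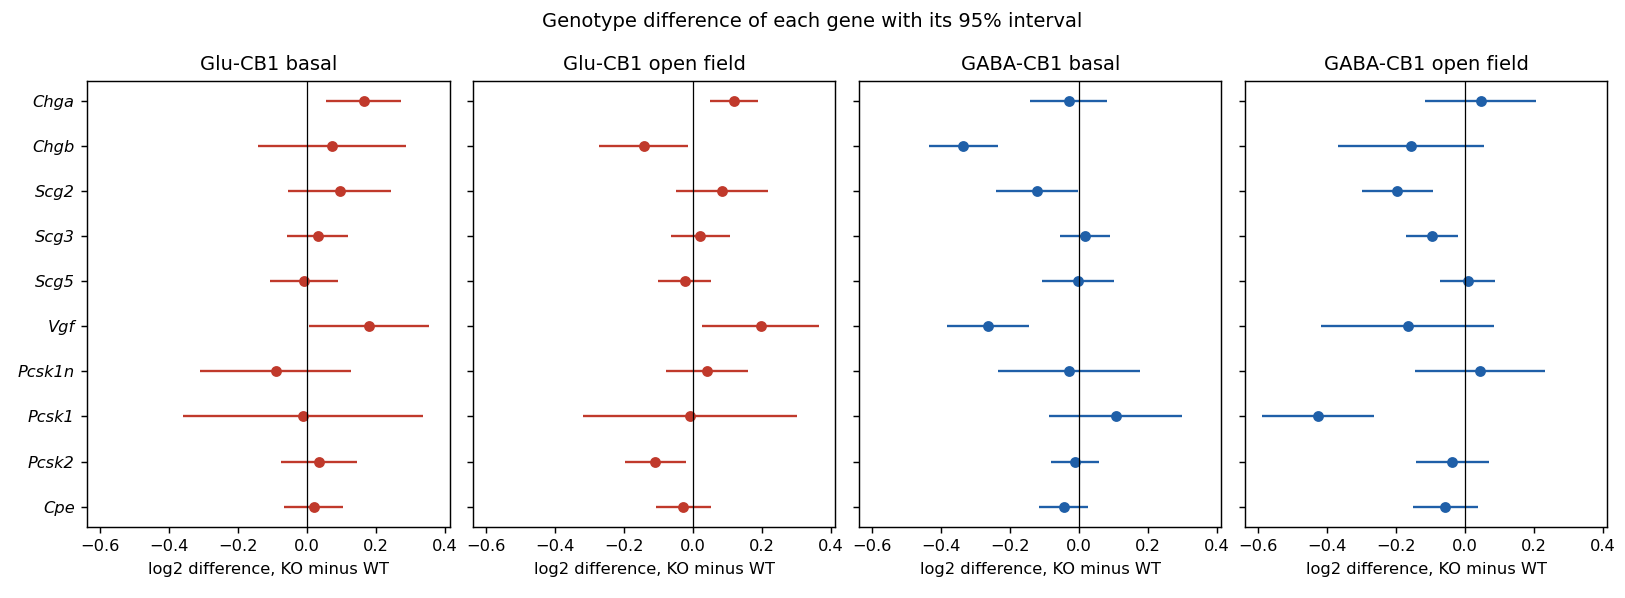
Log2 difference between KO and CB1-WT mice (x axis) for each gene in the 4 combinations of line and state, from edgeR. Points are the estimates and lines their 95% intervals; *Chgb* in the basal GABA-CB1 comparison, at −0.33, is the 1 estimate of the 40 that passed the adjusted test.

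After the open field, GABA-CB1-KO mice had lower levels of *Pcsk1*, the convertase that makes the first cuts in many precursors, but the difference did not pass the adjusted test. The 5 KO libraries had 13.98, 15.9, 17.97, 18.04 and 18.7 CPM, and the 7 CB1-WT libraries ran from 19.1 to 24.04 with a median of 23.4. No KO library reached the lowest CB1-WT library. The log2 difference was −0.43 (SE 0.076), the largest of any member in any of the 4 comparisons, with an unadjusted p of 5.45e-05 and an adjusted p of 0.107 by edgeR's quasi-likelihood test.

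*Scg2* was also lower without overlap in these mice. Its 5 KO libraries had 189, 195, 209, 215 and 217 CPM, against 218 to 263 with a median of 234 in the 7 CB1-WT libraries. The gap between the highest KO and the lowest CB1-WT library was small. The log2 difference was −0.20 (SE 0.048; adjusted p 0.177, edgeR's quasi-likelihood test). *Scg3* followed at −0.096 (unadjusted p 0.0164, adjusted p 0.296, edgeR).

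None of the 10 members passed in this comparison by edgeR's quasi-likelihood test, in which 0.0199% of all genes did. Of the members 3 had an unadjusted p under 0.05, as did 2000 of the 15097 genes tested. DESeq2 called 2, *Pcsk1* (adjusted p 0.000217) and *Scg2* (0.0196), in a setting in which it called 143 genes against 3 by edgeR. Over the alternatives the adjusted p of *Pcsk1* ran from 0.000217 to 0.279 and that of *Scg2* from 0.0196 to 0.601. Groups without overlap were seen for 2 of the 10 members and for 0.98% of all genes. The median log2 difference was −0.076 for the members and 0.0017 for all genes.

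One library stood apart in *Chgb*, *Vgf* and *Chga* after the open field, and it decided the call of *Chgb*. In GABA-CB1-KO open field replicate 1, *Chgb* was at 1063 CPM, while the other 4 KO libraries had 649.9, 656, 680.0 and 764 CPM and the 7 CB1-WT libraries 804 to 891.2. *Vgf* was at 117 CPM in it and between 69.3 and 88.8 in the other 4. *Chga* was at 132 CPM in it and between 91.7 and 102 in the other 4. For each of these genes this library was the highest of its group and above every CB1-WT library after the open field. *Scg2*, *Scg3* and *Scg5* in it lay within the range of the other 4, *Pcsk1n*, *Pcsk2* and *Cpe* were above that range, and *Pcsk1* was below it at 13.98 CPM.

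With this library the log2 difference of *Chgb* after the open field was −0.16 (SE 0.099, adjusted p 0.50005) and without it −0.31 (SE 0.046, adjusted p 0.0248), by edgeR's quasi-likelihood test. For *Vgf* it was −0.17 (SE 0.117, adjusted p 0.545) with and −0.32 (SE 0.083, adjusted p 0.186) without the library, and for *Chga* 0.046 (SE 0.075) with and −0.050 (SE 0.049) without it, so neither passed either way. *Cnr1* in this library was 156 CPM, close to the other KO libraries (101 to 147) and below the lowest CB1-WT library (337). Marker lists of CA3 and CA2 pyramidal cells (693 CPM summed, against 560 to 598 in the other 4) and of subiculum and cortex (2209 against 1780 to 1914) were highest in it, as were those of astrocytes (5266 against 4737 to 5012), of microglia, of interneurons and of 2 pathway lists, dense-core vesicle membrane (4574 against 4217 to 4417) and, by 1 CPM, other processing enzymes. Lists of CA1 pyramidal cells (808 against 842 to 939), dentate granule cells (266 against 287 to 319), thalamus and habenula (77.8 against 85.2 to 100.1), vascular cells (184 against 210 to 275) and blood were lowest in it. The part of these differences in the levels of the granins was not tested.

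Over both states of the GABA-CB1 line, with state in the model, no member passed by edgeR's quasi-likelihood test, while 0.355% of all genes did. Unadjusted p-values were under 0.05 for *Chgb*, *Scg2* and *Vgf*, and for 1259 of the 15216 genes tested. *Chgb* had a log2 difference of −0.25 (SE 0.059, adjusted p 0.0631, edgeR), *Scg2* of −0.16 (SE 0.038, adjusted p 0.0713) and *Vgf* of −0.22 (SE 0.068, adjusted p 0.266). DESeq2 called 2 of them, *Chgb* and *Scg2*.

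Without GABA-CB1-KO open field replicate 1, *Chgb* (−0.32, SE 0.034, adjusted p 3.37e-06, edgeR) and *Vgf* (−0.29, SE 0.052, adjusted p 0.00367, edgeR) passed over both states. *Scg2* passed without GABA-CB1-WT basal replicate 2 (adjusted p 0.0325, edgeR) or without replicate 5 of that group. Over the fits that left out 1 library, the log2 difference of *Chgb* ran from −0.32 to −0.22, that of *Vgf* from −0.29 to −0.19 and that of *Scg2* from −0.17 to −0.14, so all 3 stayed below 0.

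**Figure D4:**
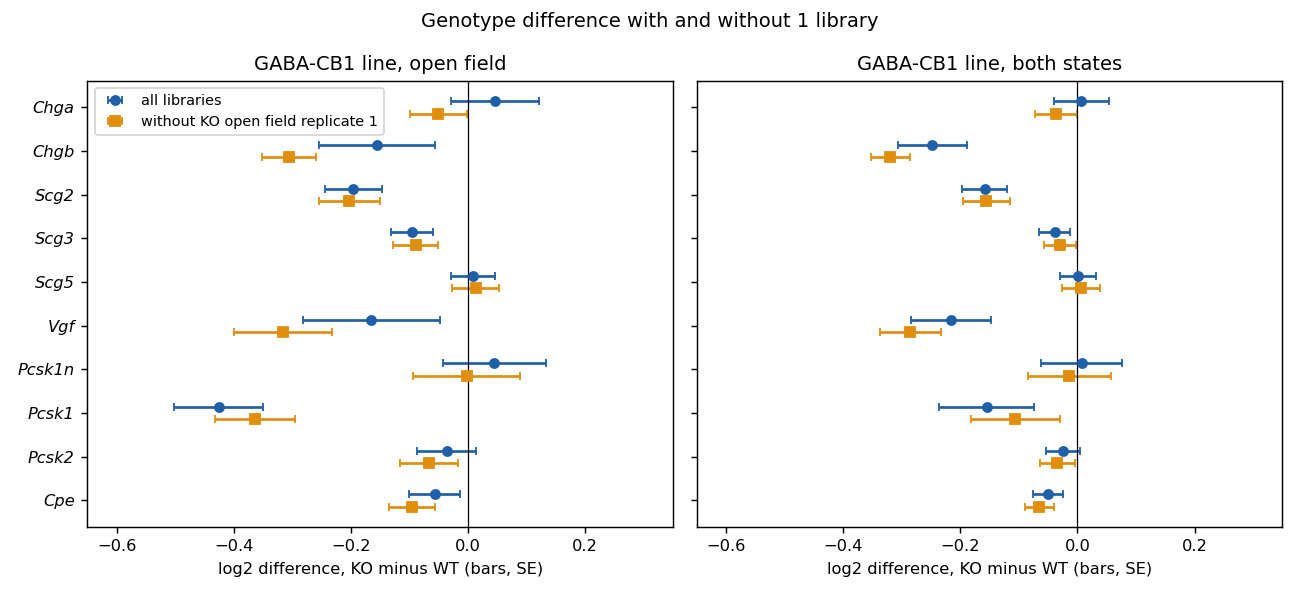
Log2 difference between GABA-CB1-KO and CB1-WT mice (x axis) after the open field and over both states, with all libraries (blue circles) and without GABA-CB1-KO open field replicate 1 (orange squares). Bars are SE. Without the library, *Chgb* moves from −0.16 to −0.31 after the open field.

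The difference of the genotype effect between the states was tested as an interaction within the GABA-CB1 line. None of the 10 members passed by edgeR's quasi-likelihood test, 2 had an unadjusted p under 0.05, and no gene of all those tested passed (0%), although 2237 had an unadjusted p under 0.05 and DESeq2 called 62. *Pcsk1* had the largest value of the members, −0.53 (SE 0.124, adjusted p 0.198, edgeR). Its KO and CB1-WT means were 19.2 ± 2.31 and 17.8 ± 2.32 CPM (SD, n = 6 each) when basal, and 16.9 ± 1.95 (n = 5) and 22.7 ± 1.73 (n = 7) after the open field. The order of KO and CB1-WT means thus differed between the states. The basal difference, however, had a 95% interval on both sides of 0, from −0.086 to 0.30, so its direction is not established. DESeq2 called this interaction (adjusted p 0.0250), and over the alternatives the adjusted p reached 0.512. For *Chgb* the interaction was 0.18 (SE 0.114), and 0.033 (SE 0.067) without GABA-CB1-KO open field replicate 1.

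In the Glu-CB1 line the member that stood out was *Chga*, a granin that drives vesicle formation and is the precursor of several peptides, and it was higher in KO mice. After the open field the 5 CB1-WT libraries had 99.9, 99.998, 102, 106 and 107.8 CPM, and the 7 KO libraries ran from 108.5 to 118 with a median of 110.3. All KO libraries were above all CB1-WT libraries, by less than 1 CPM at the boundary. In the basal state the CB1-WT libraries had 93.8, 96.2, 97.1, 109 and 113 CPM, and the KO libraries ran from 109 to 127 with a median of 112. These groups overlapped, with 3 of 7 KO libraries above every CB1-WT library.

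Over both states *Chga* was higher by 0.14 on the log2 scale (SE 0.030, adjusted p 0.0363 by edgeR's quasi-likelihood test (Benjamini-Hochberg adjusted)), 1 of 10 members to pass, while 0.257% of all genes did. This call rested on many libraries: it was lost in 15 of 24 fits that left out 1 library (adjusted p up to 0.0969), while the log2 difference stayed between 0.13 and 0.16. These were Glu-CB1-KO basal replicates 1, 4, 5 and 7, Glu-CB1-WT basal replicates 1, 4 and 5, Glu-CB1-KO open field replicates 1, 3, 4, 5 and 6, and Glu-CB1-WT open field replicates 2, 3 and 5. It was also lost in 4 of 10 other alternatives, whose adjusted p ran from 0.00371 to 0.195. Within a state, *Chga* did not pass: the log2 difference was 0.16 in the basal state (SE 0.051, adjusted p 0.999, edgeR) and 0.12 after the open field (SE 0.033, adjusted p 0.254, edgeR).

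No member passed within either state of the Glu-CB1 line by edgeR's quasi-likelihood test. In the basal state 0.0198% of all genes passed. There 2 members, *Chga* and *Vgf*, had an unadjusted p under 0.05, as did 541 of the 15138 genes tested. With the open field 0.272% of all genes passed. There 4 members had an unadjusted p under 0.05, as did 1051 of the 15078 genes tested. DESeq2 called 0 of the 10 in both. Basal groups did not overlap for 0 members (0.205% of all genes), and open field groups for 1 member, *Chga* (0.716% of all genes).

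*Vgf* was on the higher side in Glu-CB1-KO mice in both states, without passing. The basal CB1-WT libraries had 78.5, 81.5, 87.2, 95.8 and 97.9 CPM, and the KO libraries ran from 82.0 to 114 with a median of 102. Open field CB1-WT libraries had 74.1, 83.5, 91.5, 97.8 and 102 CPM, and the KO libraries ran from 84.6 to 113 with a median of 103. The groups overlapped in both states, with 4 of 7 KO libraries above every CB1-WT library each time. Over both states the log2 difference was 0.19 (SE 0.059, adjusted p 0.293, edgeR).

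*Chgb* did not follow *Chga* in these mice. Its log2 difference was 0.073 in the basal state (95% interval from −0.14 to 0.29) and −0.14 after the open field (interval from −0.27 to −0.013, unadjusted p 0.0332, adjusted p 0.639, edgeR), with 5 of 7 KO libraries below every CB1-WT library after the open field. *Pcsk2* was at −0.11 after the open field (unadjusted p 0.0183, adjusted p 0.530, edgeR), with 4 of 7 KO libraries below every CB1-WT library. *Scg2* was at 0.095 when basal and 0.083 after the open field. *Pcsk1* was at −0.011 and −0.0080, with an interval from −0.36 to 0.34 in the basal state. The median over the 10 members was 0.033 when basal and 0.0070 after the open field, beside −0.00091 and −0.0025 over all genes.

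Cell type markers differed in the open field groups of the Glu-CB1 line too. Of the CA1 pyramidal markers 6 of 7 were above 0 (median log2 difference 0.15, 5 with an unadjusted p under 0.05, none called by edgeR), of the CA3 and CA2 markers 8 of 10 were below 0 (median −0.18, 5 with an unadjusted p under 0.05, 1 called), and of the oligodendrocyte markers 8 of 8 were below 0 (median −0.11, none called). Of all 15078 genes tested with the open field, 1051 had an unadjusted p under 0.05. Over both states the CA1 and the CA3 and CA2 medians were 0.14 and −0.12. The part of these in the values of *Chga*, *Chgb* and *Pcsk2* was not tested.

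The interaction of genotype and state in the Glu-CB1 line called no member and no gene (0%, 379 genes at an unadjusted p under 0.05) by edgeR's quasi-likelihood test or DESeq2, and 1 member, *Pcsk2* (−0.14), had an unadjusted p under 0.05.

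Because each line has its own controls, the genotype effects of the lines were set against each other by a test of their difference, Glu-CB1 minus GABA-CB1. In the basal state *Vgf* had the largest value, 0.44 (SE 0.105, adjusted p 0.0813, edgeR's quasi-likelihood test), from a Glu-CB1 difference of 0.18 and a GABA-CB1 difference of −0.26. *Chgb* had 0.41 (SE 0.118, adjusted p 0.212, edgeR). None of the 10 members passed, while 0.279% of all genes did. Among the members 4 (*Vgf*, *Chgb*, *Chga* and *Scg2*) had an unadjusted p under 0.05, with the Glu-CB1 value the higher in each. An unadjusted p under 0.05 was seen for 1317 of the 15390 genes tested.

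The *Vgf* difference passed with DESeq2 (adjusted p 0.0132), and by edgeR without Glu-CB1-KO basal replicate 2 (adjusted p 0.0202) or without GABA-CB1-KO basal replicate 4. Over its alternatives the adjusted p reached 0.257. After the open field none of the 10 members passed by edgeR's quasi-likelihood test or DESeq2, while 0.568% of all genes did by edgeR. Of the members 4 had an unadjusted p under 0.05, as did 1652 of the 15325 genes tested. *Scg2* had 0.28 (SE 0.083, adjusted p 0.140, edgeR), which passed without Glu-CB1-WT open field replicate 2 (adjusted p 0.0323), and *Pcsk1* had 0.42 (SE 0.177, adjusted p 0.387, edgeR). *Vgf* had 0.36 (SE 0.151), and 0.51 (SE 0.124, adjusted p 0.0576, edgeR) without GABA-CB1-KO open field replicate 1.

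No member passed in the comparison of the open field with the basal state. It was made over KO and CB1-WT mice of a line together, with genotype in the model. In the Glu-CB1 line 0 of 10 members passed between states by edgeR's quasi-likelihood test, and 1.83% of all genes passed. There 1 member (*Pcsk1n*, −0.16) had an unadjusted p under 0.05, as did 2121 of the 15178 genes tested. In the GABA-CB1 line 0 of 10 passed, and 0.966% of all genes passed. No member had an unadjusted p under 0.05 there, while 1848 of the 15216 genes tested did. DESeq2 called 0 members in both lines.

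The estimates were small, from −0.16 to 0.11 for the Glu-CB1 line and from −0.069 to 0.12 for the GABA-CB1 line on the log2 scale. The 95% intervals of all 10 members lay between −0.28 and 0.35 in the former and between −0.21 and 0.28 in the latter. These values average over the genotypes, and the response within 1 genotype was not tested. For *Pcsk1* of the GABA-CB1 line the means rose from 17.8 to 22.7 CPM in CB1-WT and fell from 19.2 to 16.9 in KO mice. The interaction of genotype and state did not pass for it by edgeR. In the same libraries 10 of 19 activity-regulated genes rose with the open field in both lines, with a median log2 difference of 0.37 and 0.35, and among them *Fos*, an immediate early transcription factor, rose by 1.92 and 1.95 (SE 0.210 and 0.262). *Vgf* was at 0.034 and 0.12 and *Scg2* at −0.0085 and −0.031, although both are known to be induced by activity. By the study's account, the tissue was isolated an hour after a single short exposure. Other times were not analysed here.

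Between the controls of the lines, compared over both states, none of the 10 members passed by edgeR's quasi-likelihood test or DESeq2, none had an unadjusted p under 0.05, and no gene of all tested passed by either (0%, 593 genes at an unadjusted p under 0.05 by edgeR). Estimates ran from −0.10 to 0.044 on the log2 scale, with intervals within −0.24 and 0.19. Breeding and handling of the lines cannot be told apart from line.

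Other genes of the pathway were described from 4 lists with 75 genes, 73 of which were tested: other processing enzymes, proteins of the vesicle membrane and its sorting, proteins of vesicle release, and peptide cargo. In GABA-CB1-KO mice the calls were all lower. The calls over all genes were 31 lower and 6 higher in the basal state, and 38 and 16 over both states. Of the pathway genes 2 of 73 were called in the basal state, beside 0.245% of all genes. Both were from the vesicle membrane: *Slc18a2*, the vesicular monoamine transporter (−0.88, SE 0.143, adjusted p 0.0171, edgeR), and *Svop*, a transporter-like vesicle protein (−0.23, SE 0.024, adjusted p 0.000668, edgeR). *Slc18a2* was at 2.09 ± 0.44 CPM against 3.89 ± 0.62 (SD, n = 6 each), so it is a gene of low level. *Svop* ran from 167 to 173 CPM in the KO and from 191 to 205 in the CB1-WT libraries, without overlap. Open field levels of *Svop* ran from 173 to 249.5 CPM with a median of 183 in the 5 KO libraries and from 191 to 198 in the 7 CB1-WT libraries, and these groups overlapped.

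Over both states 0.355% of all genes were called, and 5 of 73 pathway genes were lower in GABA-CB1-KO mice. These were *Pam*, which amidates the ends of peptides after *Cpe* has trimmed them (−0.14, SE 0.023, adjusted p 0.00225, edgeR), the sorting receptor *Sorcs3* (−0.23), *Slc18a2* (−0.67), the neurotrophin *Bdnf* (−0.34) and the neuropeptide somatostatin, *Sst* (−0.31). *Pam* is the 1 processing enzyme among 11 tested outside the members to pass in this comparison. Its levels were 208 ± 6.25 against 222 ± 4.49 CPM when basal and 198 ± 9.68 against 224 ± 6.73 CPM after the open field. In the open field groups alone 0 of 73 passed by edgeR, beside 0.0199% of all genes.

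In Glu-CB1-KO mice the calls were all higher. The calls over all genes were 22 higher and 17 lower over both states, and 22 and 19 with the open field. Over both states 0.257% of all genes were called, and 3 of 73 pathway genes: *Npy*, neuropeptide Y (0.48, SE 0.062, adjusted p 9.34e-05, edgeR), *Sst* (0.35) and the convertase *Pcsk5* (0.28). For the open field groups 0.272% of all genes were called, and 2 of 73 pathway genes: *Npy* (0.55) and *Syt9*, a calcium sensor of vesicle release (0.58, SE 0.082, adjusted p 0.00604, edgeR). *Npy* was at 28.2 ± 3.42 CPM in CB1-WT and 37.9 ± 2.92 in KO mice in the basal state, and at 26.1 ± 4.54 and 38.13 ± 2.86 after the open field. The peptide cargo list had a median log2 difference of 0.15 over both states, with 19 of 22 genes above 0, beside a median of −0.0029 over all genes.

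The difference between the lines passed for 3 of 73 in the basal state, beside 0.279% of all genes: *Slc18a2* (1.12), *Svop* (0.34) and *Npy* (0.71). After the open field it passed for *Sst* (0.78), *Npy* (0.76), *Tac1*, the precursor of substance P (0.96), and *Pcsk5* (0.54). It also passed there for the vesicle GTPases *Rab3b* (0.55) and *Rab3c* (0.36), which makes 6 of 73, beside 0.568% of all genes. For each of the genes named the genotype effect, not the level, was the higher in the Glu-CB1 line. Over all genes this held for 32 of 43 called in the basal state and 50 of 87 after the open field. Mean levels in open field CB1-WT mice were lower in the Glu-CB1 line for each of the named genes except *Svop*. *Svop* was at 201 CPM there and at 194 in the GABA-CB1 line. *Rab3c* was at 674 CPM in CB1-WT and 754 in KO mice of that line, against 750 and 653 in the GABA-CB1 line. The part of the controls in these differences was not tested. In the response to the open field 0 of 73 passed in either line by edgeR, beside 1.83% of all genes in the Glu-CB1 and 0.966% in the GABA-CB1 line. The summed level of 12 interneuron markers, *Sst* and *Npy* among them and the deleted gene *Cnr1* left out, ran from 915 to 964 CPM in KO and from 910.4 to 1044 in CB1-WT libraries of the basal GABA-CB1 groups, which overlapped. In the open field groups of that line it ran from 889.9 to 946 in KO and from 958 to 1027 in CB1-WT libraries, without overlap. In the Glu-CB1 line it ran from 915 to 1079 in KO and from 906 to 1023 in CB1-WT libraries when basal, and from 985 to 1088 and from 836 to 986 with the open field. Of these markers, *Sst* and *Pvalb* passed the test over both states of the GABA-CB1 line (both lower), and *Sst* and *Npy* over both states of the Glu-CB1 line (both higher). The part of these levels in those of the granins was not tested.

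Within groups the members did not vary as one. After subtraction of the group means of log2 CPM, Pearson's r over the 48 libraries was highest for *Chgb* and *Pcsk2* (0.63, Spearman's rho 0.54), *Chga* and *Vgf* (0.60, rho 0.50), *Chga* and *Cpe* (0.53, rho 0.34), and *Chgb* and *Cpe* (0.51, rho 0.49). Without GABA-CB1-KO open field replicate 1 these were 0.62, 0.46, 0.41 and 0.39, and *Scg3* and *Cpe* (0.52) and *Vgf* and *Pcsk1n* (0.47) came next after *Chgb* and *Pcsk2*. *Pcsk1* and its inhibitor *Pcsk1n* had −0.12, and *Pcsk2* and its chaperone *Scg5* 0.22. The libraries share depth, dissection and amplification, and these correlations are given as a description only.

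**Figure D5:**
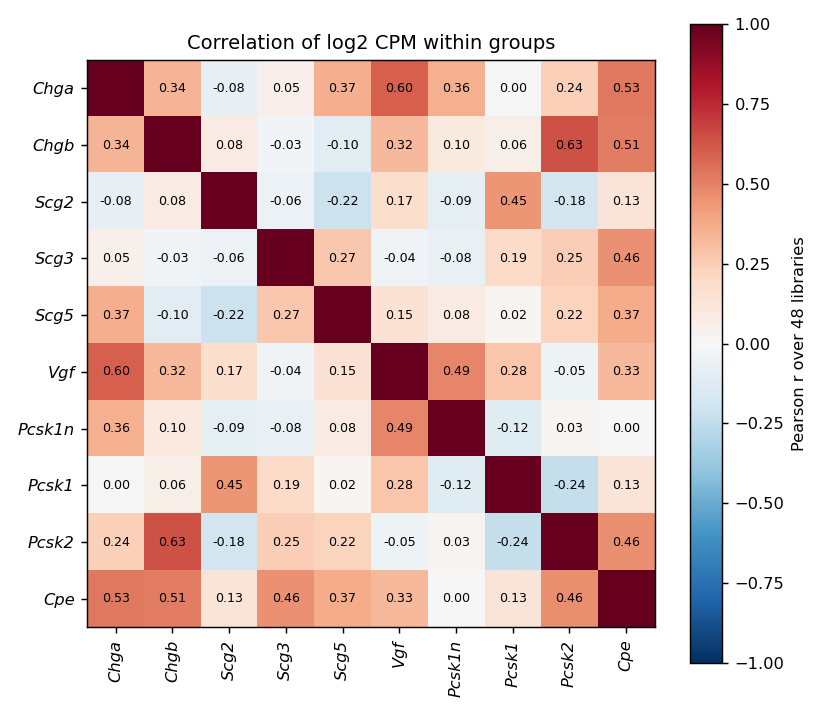
Pearson's r of log2 CPM between each pair of genes over 48 libraries after subtraction of the 8 group means (color scale from −1 to 1, values printed). The highest r is 0.63, between *Chgb* and *Pcsk2*.

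Part of this shared variation followed the first principal component. Within groups, r with its score was −0.58 for *Pcsk1*, −0.47 for *Scg2*, −0.45 for *Scg3* and −0.45 for *Chgb*, beside −0.95 for *Xkr4*, and 0.13 for *Chga* and −0.092 for *Vgf*. *Pcsk1* was at 17.4 ± 2.77 CPM in the 15 libraries set apart and at 20.6 ± 3.38 in the other 33. With the score as a covariate the difference of *Chgb* in the basal GABA-CB1 comparison was −0.35 (SE 0.047, adjusted p 0.00595, edgeR), and that of *Pcsk1* after the open field −0.41 (SE 0.082, adjusted p 0.165, edgeR).

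The 3 genes most like each member in this variation were taken from 15560 genes outside the members. For *Chgb* they were *Cadm3* (r = 0.86), *Rab15* (0.82) and *Snap91* (0.82), and for *Pcsk2* they were *R3hdm4* (0.82), *Wasf1* (0.76) and *Snap25* (0.76). For *Chga* they were *Hk1* (0.81), *Acot7* (0.80) and *Trappc9* (0.80), and for *Cpe* they were *Vdac1* (0.86), *Basp1* (0.83) and *Ywhab* (0.81). For *Vgf* they were *Dos* (0.76), *Ptprn* (0.74) and *Mlf2* (0.73), of which *Ptprn* encodes a receptor-like protein of the dense-core vesicle membrane and fell to 0.65 without GABA-CB1-KO open field replicate 1.

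*Scg2* was most like *Fam150b* (0.67), *Atrnl1* (0.65) and *Npy* (0.64), and genes most like *Pcsk1* included *Zdbf2* (0.81) and *Cntnap3* (0.78). For *Scg3* they were *Mtmr7* (0.72), *Abat* (0.72) and *Ntm* (0.71), for *Scg5* they were *Gabarapl1* (0.81), *Nsg2* (0.79) and *Habp4* (0.76), and for *Pcsk1n* they were *Chpf* (0.76), *Rprml* (0.75) and *Jph3* (0.75). *Scg2* and *Pcsk1*, which share the full cAMP response element with *Chgb*, had an r of 0.45 with each other, and r values of 0.080 and 0.056 with *Chgb*. With the first principal component *Scg2*, *Pcsk1* and *Chgb* had r values of −0.47, −0.58 and −0.45. A link between the element and these correlations was not tested.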

How the data were processed

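RNA of CA tissue from 48 mice was amplified (NuGEN Ovation) and sequenced by the authors as single-end reads of 50 bases. The authors trimmed the reads, aligned them to mm10 with STAR 2.6.0a and deposited raw counts per gene made with featureCounts 1.6.2, versions taken from the submitters' processing notes. Counting used the reverse-stranded setting, and whether the amplification kept strand is not given in the sources used here, so reads of overlapping genes on opposite strands may be assigned to either.

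From these counts, edgeR 4.0.16 in R 4.3.3 (TMM, filterByExpr, quasi-likelihood test, Benjamini-Hochberg adjusted p under 0.05 over all genes tested) was fitted to the groups of each comparison. Differences are log2 KO minus CB1-WT. CPM were scaled by TMM, and correlations used log2 CPM with a prior count of 2. Alternatives were DESeq2 1.42.0, RLE size factors, other filters, all libraries in one fit, a covariate from the numbers that end the sample titles, a replicate block, and each library left out. A covariate from the first principal component, and fits without the libraries apart on it or rich in *Ttr*, were added after seeing the data, as was the sum of interneuron markers without *Cnr1*. Intervals are 95%. The script was tested on simulated data. No 2 libraries of the same group agreed within sampling noise, and pairs across groups were not compared.

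The members and lists were chosen with earlier results of these data known. Named genes were all members, every gene of the pathway lists that passed in any comparison (up to 6 per list and comparison), and the 3 genes most like each member, of which 1 is not reported here. *Cnr1*, *Ttr*, *Xkr4* and *Fos*, and the promoter windows of *Scg2* and *Pcsk1*, were chosen after their values were seen, while promoters of called members were shown by rule. Groups followed the sample labels. The replicates are separate mice. Motifs and sequences are from RefSeq promoters of GRCm38.p6, matched by symbol. Depth ran from 25892654 to 34091080 counts.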

Additional observations from a re-analysis of the deposited data

Results flagged for a closer look

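Of 80 combinations of member and group, 11 held a library whose gap to its nearest neighbour was large for the group's range by Dixon's criterion, and chance gives about 1 in 20. Both *Chga* (132 CPM, others 91.7 to 102) and *Chgb* (1063 CPM, others 649.9 to 764) were highest in GABA-CB1-KO open field replicate 1, the library that decided the open field result of *Chgb*. In Glu-CB1-KO basal replicate 6, *Chgb* was at 1211 CPM (others 788 to 970.3) and *Pcsk2* at 464 CPM (others 385 to 414). *Chga* was at 127 CPM in Glu-CB1-KO basal replicate 1 (others 109 to 116), and *Chgb* at 1014 CPM in GABA-CB1-WT basal replicate 4 (others 815 to 886).

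*Pcsk1* was at 28.6 CPM in Glu-CB1-KO open field replicate 6 (others 17.8 to 21.3) and at 23.4 CPM in GABA-CB1-KO basal replicate 5 (others 17.1 to 19.4). *Scg2* was at 263 CPM in GABA-CB1-WT open field replicate 4 (others 218 to 237), and *Cpe* at 3403 CPM in Glu-CB1-KO open field replicate 5 (others 3011 to 3122). *Pcsk1n* was lowest, at 31.3 CPM, in GABA-CB1-WT open field replicate 2 (others 41.5 to 44.3).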

How the results depend on the processing

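No difference of a member reversed among called values. In the basal GABA-CB1 comparison the number of members called was 1, and it was 0 with all 48 libraries in one fit, 2 with DESeq2 and 1 to 2 with 1 library left out. After the open field in that line it was 0, 2 with DESeq2 and 0 to 1 with 1 library left out. Over both states of the GABA-CB1 line it was 0, 2 with DESeq2, 1 with the label number covariate, 2 with the first principal component as a covariate and 0 to 2 with 1 library left out. Over both states of the Glu-CB1 line it was 1, 0 with all libraries in one fit, with the label number covariate and without the libraries apart on the first principal component, and 0 to 1 with 1 library left out. The interaction of genotype and state in the GABA-CB1 line had 0, and 1 with DESeq2. The difference between lines had 0 in the basal state, 1 with DESeq2 or the label number covariate and 0 to 1 with 1 library left out, and after the open field 0, and 0 to 1 with 1 library left out. The causes were not tested.

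The replicate numbers did not pair the libraries: of 21 pairs, 4 had a correlation over 0.1 (range −0.34 to 0.32) and 1 correlated best with its own number. With the replicate block, 0 members instead of 1 passed over both states of the Glu-CB1 line, and *Chgb* in the basal GABA-CB1 comparison had an adjusted p of 0.0436 by edgeR.

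Counts over all genes varied more. In the basal GABA-CB1 comparison edgeR called 37 genes, DESeq2 102, the replicate block 8, the label number covariate 24 and the fit without the libraries apart on the first principal component 22. For the open field in that line edgeR called 3, DESeq2 143, all libraries in one fit 106 and the block 1, and over both states 54, against 129 with DESeq2, 19 with the block, 110 with the component as a covariate and 27 without the libraries apart. In the Glu-CB1 line the open field count was 41, against 123 with DESeq2, 3 with the block, 85 with the component, 16 with the label number and 15 without the libraries apart. Over both states it was 39, against 101, 96, 79 and 14 with DESeq2, the block, the component and without the libraries apart, and in the basal state 3, against 7 with DESeq2 or all libraries in one fit. The open field response had 277 genes in the Glu-CB1 line (492 with DESeq2, 430 with the component) and 147 in the GABA-CB1 line (276 with DESeq2, 286 with the component, 37 with the block, 32 without the *Ttr*-rich libraries and 7 without the libraries apart). The difference between lines had 43 in the basal state (75 with DESeq2) and 87 after the open field (194 with DESeq2, 53 with all libraries in one fit, 56 with the block and 29 without the libraries apart).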
